A study of Mus musculus with 6 samples.

Results

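miR-146a-5p and miR-146b-5p are the mature 5p strands of the 2 mouse miR-146 hairpins, and they were found by name as 2 of the 1960 entries of a count table of mature miRNAs. Both were among the 297 miRNAs that passed a filter on low counts and were tested. The table held 6 libraries of immune cells isolated from the liver of wildtype female C57BL/6J mice aged 10 weeks, 2 libraries in each of 3 groups. The Vehicle group was without disease and was given only the solvent, DMSO in corn oil. Concanavalin A (ConA), a lectin from jack beans, activates T cells on injection and so brings about hepatitis. The ConA+Vehicle group was injected with it retro-orbitally (12.5 mg/kg). The ConA+D8THC group was given the same ConA together with the cannabinoid delta-8-tetrahydrocannabinol (D8THC), dosed intraperitoneally (20 mg/kg, 100 µL in DMSO and corn oil) both 15 to 18 h ahead of ConA and 30 min later. The labels call the libraries biological replicates. How many mice stand behind a library, and when they were killed, is not stated, so the p-values measure the spread between these libraries.

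A miRNA pairs through its seed, bases 2 to 8 from the 5′ end, with sites in messenger RNAs and lowers their output. miR-146a is known as a brake on inflammation, and NF-kappaB induces it in macrophages and T cells. In turn, miR-146a represses IRAK1 and TRAF6, proteins that carry signals from Toll-like and interleukin-1 receptors to NF-kappaB. miR-146b carries the same seed and has been linked to the control of macrophage activation through the same proteins. In T cells, miR-146a is known to limit the response to the T cell receptor and to be abundant in regulatory T cells.

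The sequences show why the pair is described together and where its members can be told apart. They are given 5′ to 3′ as RefSeq lists them for GRCm38.p6, with the seed in capitals.
miR-146a-5p: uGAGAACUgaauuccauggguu
miR-146b-5p: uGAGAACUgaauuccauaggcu
miR-146a-3p: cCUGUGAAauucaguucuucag
miR-146b-3p: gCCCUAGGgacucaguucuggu
The 5p strands were identical at 20 of 22 positions. Counted from 1 at the 5′ end, with the base of miR-146a-5p first, the differences were G18A and U21C, so both lie outside the seed. Of the 1671 table entries with a RefSeq mature sequence, these 2 were the ones with this seed. Over the first 18 bases the members differed at 1 position from each other, while the nearest other entry, miR-194-5p, differed at 7 positions from miR-146a-5p and at 8 from miR-146b-5p. Reads that end before base 18 carry neither difference and may therefore be counted for either member. Reads that reach base 18 carry at least that difference. The 3p strands were identical at 4 of 22 positions and have different seeds.

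The hairpins lie on different chromosomes, and they are shown with the 5p strand in capitals because the parts outside it differ between the genes.
Mir146: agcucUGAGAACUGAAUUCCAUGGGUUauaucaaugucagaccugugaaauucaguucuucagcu
Mir146b: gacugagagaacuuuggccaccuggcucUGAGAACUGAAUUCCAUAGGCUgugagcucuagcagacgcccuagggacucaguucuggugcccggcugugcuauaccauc
Mir146 (65 bases, chr11:43374397-43374461, minus strand) overlaps no other gene in GENCODE M21, and its nearest protein-coding gene is Pttg1, at 45789 bases. Mir146b (109 bases, chr19:46342762-46342870, plus strand) lies in an intron of the protein-coding gene Mfsd13a on the same strand. All positions are in build mm10, also called GRCm38.

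Library totals ran from 322764 to 1172389 counts and were lowest in the ConA+Vehicle group (381274 and 322764). The labelled immune cells were present by their defining miRNAs: the arms of miR-142a, found across blood cells, took 2.53% to 11.2% of each library. Markers of other liver cells were abundant as well, with 12.8% to 34.2% of counts from the endothelial arms of miR-126a and 5.18% to 19.7% from 6 hepatocyte miRNAs. In bulk libraries such as these, fewer cells of a type and less RNA per cell cannot be told apart.

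miR-146a-5p was one of the most abundant miRNAs in every library. Its counts scaled to a common library size with TMM factors (CPM) were 24685 and 20168 in replicates 1 and 2 of Vehicle, 13526 and 17124 in those of ConA+Vehicle, and 20076 and 16422 in ConA+D8THC. Vehicle was the highest group and ConA+Vehicle the lowest, and the ConA+D8THC libraries overlapped those of ConA+Vehicle. The highest ConA+D8THC library lay just below the lowest Vehicle library. The raw counts were 17888, 23007, 5425, 5174, 19454 and 11543 in the same order, so counting error was small beside the spread between replicates. It ranked 10 among all miRNAs in both Vehicle libraries, 15 in both ConA+Vehicle libraries, and 13 and 14 in ConA+D8THC.

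miR-146b-5p was far less abundant and followed another pattern. It was at 360 and 242 CPM in the Vehicle libraries, 1007 and 1284 in those of ConA+Vehicle, and 1467 and 1152 in ConA+D8THC. All 4 libraries from ConA-treated mice were above both Vehicle libraries, and the libraries of the ConA-treated groups overlapped each other. The raw counts were 261, 276, 404, 388, 1422 and 810. In rank it went from 92 and 97 in Vehicle to 66 and 61 in ConA+Vehicle and to 59 in both ConA+D8THC libraries.

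**Figure D1:**
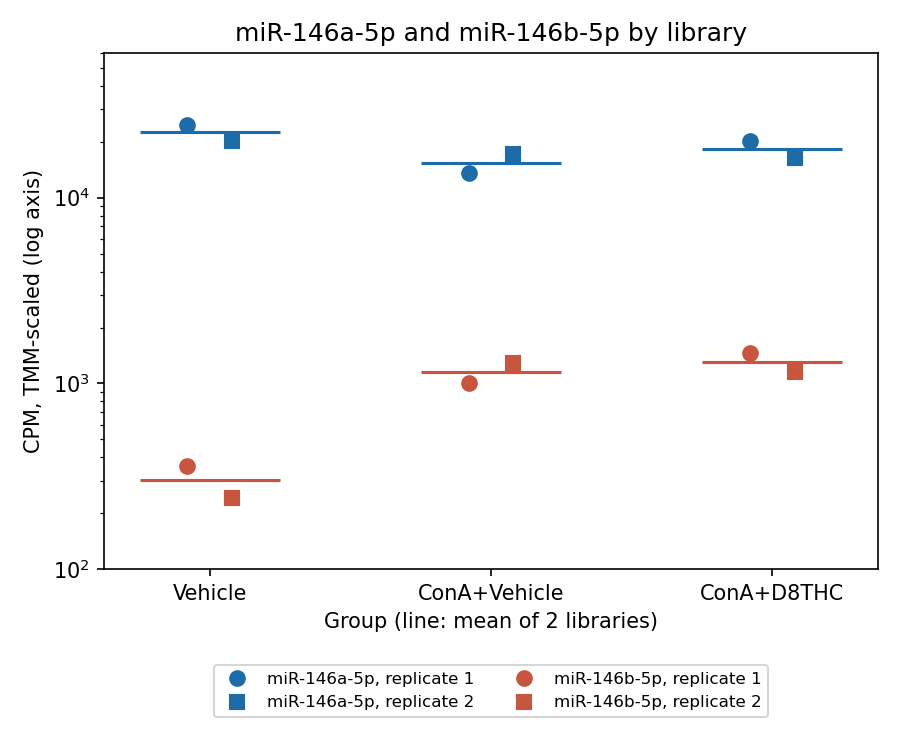
TMM-scaled CPM of miR-146a-5p (blue) and miR-146b-5p (red) on a log axis, by group, with 1 point per library and a line at the mean of 2 libraries. miR-146b-5p sits between 242 and 360 CPM in Vehicle and between 1007 and 1467 in the 4 libraries with ConA, while miR-146a-5p is highest in Vehicle.

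ConA+Vehicle against Vehicle addressed how the pair differs in ConA hepatitis. miR-146b-5p rose 3.81-fold, from 301 ± 83.6 to 1146 ± 196 CPM (SD, n = 2). On the log2 scale this was 1.93 ± 0.27 (SE; 95% interval 1.33 to 2.53; edgeR quasi-likelihood test, adjusted p = 0.000418). miR-146a-5p did not pass the threshold of 0.05 on the adjusted p, with 15325 ± 2544 CPM in ConA+Vehicle beside 22426 ± 3194 in Vehicle (log2 -0.55 ± 0.23, 95% interval -1.06 to -0.04, adjusted p = 0.0856 in edgeR). One of the 2 members was thus called, in a comparison where 36.7% of tested miRNAs were called in either direction, 19.9% higher and 16.8% lower. The groups did not overlap for either member, which held for 67.3% of tested miRNAs. Among the 297 log2 fold changes, ordered from the highest, miR-146b-5p was at position 28 and miR-146a-5p at position 221.

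miR-146b-5p was called in each of the 14 alternative fits, with log2 fold changes from 1.68 (without Vehicle replicate 2) to 2.23 (without Vehicle replicate 1). miR-146a-5p was lower in each of the same 14 fits and was called in 3 of them: in DESeq2 (log2 -0.65, adjusted p = 0.0461), with replicate number as a block (adjusted p = 0.0191) and without Vehicle replicate 2 (log2 -0.67, adjusted p = 0.0491). Its adjusted p-values ranged from 0.0191 to 0.445 over the alternatives, and its log2 fold change was -0.36 without ConA+Vehicle replicate 1.

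The effect of D8THC on the pair during ConA hepatitis was read from ConA+D8THC against ConA+Vehicle. Neither member was called. miR-146a-5p was at 18249 ± 2584 CPM in ConA+D8THC (log2 0.25 ± 0.23, 95% interval -0.25 to 0.76, adjusted p = 0.679 in edgeR), and miR-146b-5p at 1310 ± 223 CPM (log2 0.20 ± 0.26, 95% interval -0.38 to 0.77, adjusted p = 0.808). Unadjusted p-values were 0.296 and 0.470, and neither DESeq2 nor limma-voom called either member. The edgeR test called 3.7% of tested miRNAs in this comparison. The libraries overlapped for both members, while 46.8% of tested miRNAs had groups that did not overlap. The intervals leave room for an increase of up to 0.76 and 0.77 on the log2 scale, so they do not show that the groups were alike.

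ConA+D8THC was also compared with Vehicle, to set the mice given ConA and D8THC against mice without disease. miR-146b-5p rose 4.37-fold (log2 2.13 ± 0.27, 95% interval 1.53 to 2.73, adjusted p = 0.000419 in edgeR) and was called in all 14 alternative fits, with log2 values from 1.90 to 2.43. miR-146a-5p was not called (log2 -0.30 ± 0.23, 95% interval -0.80 to 0.21, adjusted p = 0.319), nor was it called in any of the 14 alternatives. Here 32.7% of tested miRNAs were called, 18.5% higher and 14.1% lower. The libraries did not overlap for either member, which held for 74.7% of tested miRNAs. This comparison and that of ConA+Vehicle with Vehicle share the Vehicle libraries, so the increases of miR-146b-5p in them are not independent.

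The balance between the paralogs was taken from their counts within a library, which needs no scaling between libraries. miR-146a-5p outnumbered miR-146b-5p by 68.5 and 83.4 to 1 in the Vehicle libraries, by 13.4 and 13.3 to 1 in ConA+Vehicle, and by 13.7 and 14.3 to 1 in ConA+D8THC. The ratio was thus 75.9 ± 10.5 (SD, n = 2) in Vehicle and 13.4 ± 0.0659 in ConA+Vehicle. It was 5.65-fold lower in ConA+Vehicle and 5.41-fold lower in ConA+D8THC than in Vehicle, by the mean log2 ratio. ConA+D8THC was 1.04-fold higher than ConA+Vehicle. In each of these 3 comparisons the libraries did not overlap, and the exact two-sided permutation p was 0.33, the smallest that 2 against 2 libraries allow. In ConA+Vehicle against Vehicle, the 95% intervals of the paralogs' fold changes did not overlap either (1.33 to 2.53 against -1.06 to -0.04, log2). A count ratio is not a ratio of molecules, since strands that differ near the 3′ end can be captured unequally in a small RNA library.

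As a share of the summed 5p counts, miR-146b-5p made up 1.44% (95% exact binomial interval 1.27% to 1.62%) and 1.19% (1.05% to 1.33%) in the Vehicle libraries, replicate 1 first. It made up 6.93% (6.29% to 7.61%) and 6.98% (6.32% to 7.68%) in ConA+Vehicle. In ConA+D8THC it made up 6.81% (6.47% to 7.16%) and 6.56% (6.13% to 7.01%). The 4 libraries with ConA had overlapping intervals, all above those of Vehicle. Such intervals cover counting error only.

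**Figure D2:**
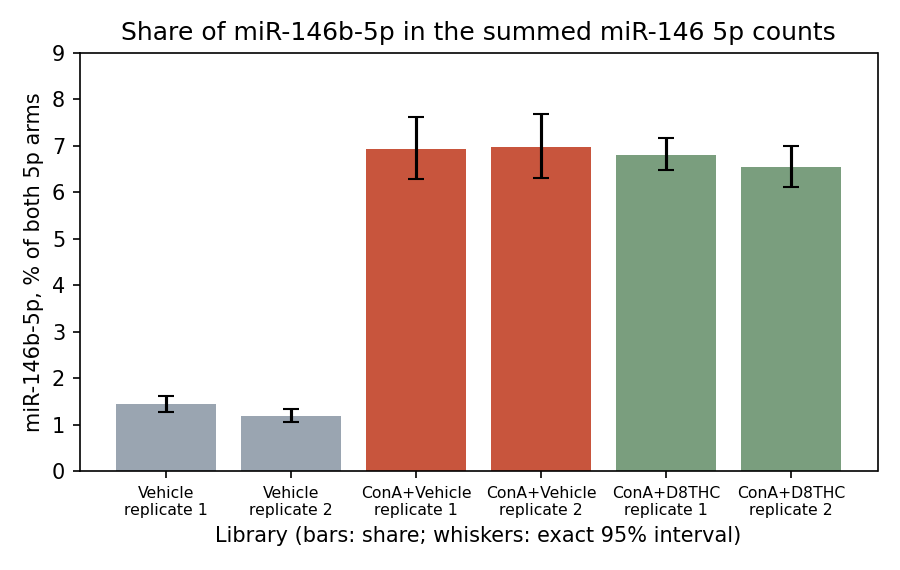
Share of miR-146b-5p in the summed counts of both miR-146 5p strands (percent), 1 bar per library, with exact 95% binomial intervals for counting error. Vehicle libraries sit at 1.19% and 1.44%, and the 4 libraries with ConA between 6.56% and 6.98%.

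Because the members share a seed and could share reads, their counts were also summed into 1 entry. The sum was 25041 and 20381 CPM in the Vehicle libraries, 14539 and 18414 in those of ConA+Vehicle, and 21552 and 17581 in ConA+D8THC. The ConA+D8THC libraries overlapped both other groups. The summed entry was not called in any comparison by edgeR, at log2 -0.46 ± 0.23 for ConA+Vehicle against Vehicle (adjusted p = 0.144), 0.25 ± 0.23 for ConA+D8THC against ConA+Vehicle (adjusted p = 0.674) and -0.21 ± 0.23 for ConA+D8THC against Vehicle (adjusted p = 0.482). With replicate number as a block, the first of these was called lower (log2 -0.45, adjusted p = 0.0472). In counts, the increase of miR-146b-5p was thus small beside miR-146a-5p within the sum.

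The other strands of the hairpins, normally the less stable ones, were near the limit of detection and did not pass the filter. miR-146a-3p had 5 and 9 counts in Vehicle, 3 and 1 in ConA+Vehicle, and 6 and 5 in ConA+D8THC. miR-146b-3p had 0 counts in both Vehicle libraries, 1 and 0 in ConA+Vehicle, and 6 and 2 in ConA+D8THC. With the floor set at 3 counts for both Vehicle libraries together, the 8 counts of ConA+D8THC were 3.20-fold above that floor relative to library depth. This leaves out the counting error of the 8 counts, 6 of which came from replicate 1, and it was not tested. The single count in ConA+Vehicle does not allow a fold at this depth.

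Several cell type marker lists differed between the groups. From Vehicle to ConA+Vehicle, the hepatocyte share went from 8.35% and 13.9% to 17.1% and 19.7%, the endothelial share from 32.7% and 34.2% to 12.8% and 13.2%, the share of miR-223, a marker of neutrophils and other myeloid cells, from 0.33% and 0.353% to 2.75% and 2.91%, and that of miR-511, a resident macrophage miRNA, from 0.0154% and 0.0113% to 0.00210% and 0.00186%. In ConA+D8THC these shares were, in the same order, 5.18% and 7.15%, 20.7% and 26.7%, 2.17% and 1.48%, and 0.00569% and 0.00405%. Lymphocyte markers took 0.762% and 0.516% of counts in Vehicle, 1.08% and 0.833% in ConA+Vehicle, and 0.998% and 0.606% in ConA+D8THC. Their share was higher in both ConA+Vehicle libraries than in both of Vehicle, and the ConA+D8THC libraries overlapped each of these groups. Bile duct markers took 0.427% and 0.470% of counts in Vehicle, 0.482% and 0.427% in ConA+Vehicle, and 0.357% and 0.509% in ConA+D8THC. These groups overlapped. Stellate cell and fibroblast shares and erythroid shares overlapped between Vehicle and ConA+Vehicle. Of the 6 hepatocyte miRNAs, edgeR called 4 higher and 1 lower in ConA+Vehicle against Vehicle. Of the 5 stellate cell and fibroblast miRNAs it called 0 higher and 2 lower, with a median log2 fold change of -1.15 against 0.10 over all. None of the erythroid miRNAs was called. Over all tested miRNAs, 19.9% were called higher and 16.8% lower. No marker list was at 0 in any library. The part of the marker shifts in the values of the miR-146 pair was not tested.

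With the 8 hepatocyte and endothelial marker miRNAs taken out of the table, miR-146b-5p was as high as before (log2 1.90 for ConA+Vehicle against Vehicle and 2.24 for ConA+D8THC against Vehicle, adjusted p = 1.71e-06 and 1.15e-07 in edgeR). As a share of the remaining counts it was 0.0587% and 0.0453% in Vehicle, 0.151% and 0.179% in ConA+Vehicle, and 0.210% and 0.177% in ConA+D8THC. miR-146a-5p took 4.03% and 3.78% of the remaining counts in Vehicle, 2.03% and 2.39% in ConA+Vehicle, and 2.88% and 2.52% in ConA+D8THC. On this base the 3 groups did not overlap for miR-146a-5p, in the order Vehicle, ConA+D8THC, ConA+Vehicle. The share of all miRNAs that separate on this base was not computed. The edgeR refit did not call miR-146a-5p in any comparison. Its adjusted p was 0.0659 for ConA+Vehicle against Vehicle, 0.472 for ConA+D8THC against ConA+Vehicle and 0.573 for ConA+D8THC against Vehicle.

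Set against the blood-cell miRNA miR-142a (both arms summed), miR-146a-5p stood at 32.5 and 77.6 counts per 100 in the Vehicle libraries, 13.8 and 17.8 in ConA+Vehicle, and 19.1 and 21.6 in ConA+D8THC. The base itself differed between libraries. miR-142a took 7.31% and 2.53% of counts in Vehicle, 10.3% and 9.03% in ConA+Vehicle, and 11.2% and 7.72% in ConA+D8THC. In each comparison with Vehicle, edgeR called 1 of its 2 arms higher. Ratios to miR-142a therefore also carry the change of miR-142a. miR-146b-5p stood at 0.474 and 0.931 per 100 in Vehicle, 1.03 and 1.33 in ConA+Vehicle, and 1.39 and 1.52 in ConA+D8THC. On this base the Vehicle libraries were again the lowest for miR-146b-5p and the highest for miR-146a-5p. How many of all miRNAs separate on this base was not computed.

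The pair was then set beside other miRNAs of the pathway. The first list held 12 strands known to be induced by NF-kappaB or Toll-like receptors. Of these, 9 were tested and miR-155-3p, miR-212-5p and miR-9-3p did not pass the filter. The list was chosen with earlier results of these data known. Its strands are not independent, since both arms of miR-21a and of miR-147 are among those tested. The counts below are therefore a description. In ConA+Vehicle against Vehicle, 6 of the 9 rose and 0 fell, with a median log2 fold change of 1.57, against 0.10 over all 297 miRNAs, of which 19.9% rose and 16.8% fell. In ConA+D8THC against Vehicle 6 of 9 rose and 0 fell as well, with a median of 1.51 against -0.06 over all, of which 18.5% rose and 14.1% fell. miR-146b-5p (1.93 and 2.13) thus lay within the range of the list's called members, and the estimates of miR-146a-5p (-0.55 and -0.30) lay below 0.

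Members of that list differed in size. miR-155-5p, which promotes inflammatory responses by repressing SHIP1 and SOCS1, was at 1511 and 1091 CPM in Vehicle, 9125 and 8489 in ConA+Vehicle, and 7285 and 5460 in ConA+D8THC. It rose 6.77-fold in ConA+Vehicle (adjusted p = 5.32e-05 in edgeR) and 4.90-fold in ConA+D8THC (adjusted p = 0.000164), each against Vehicle. miR-21a-5p, a broadly inducible miRNA, rose 2.90-fold and 2.84-fold in the same comparisons, with estimates of 4.97-fold and 4.90-fold without Vehicle replicate 1 and of 2.06-fold and 2.05-fold without Vehicle replicate 2. Its partner strand miR-21a-3p rose 7.74-fold and 10.4-fold. miR-147-3p, induced by Toll-like receptor ligands in macrophages, rose 11.6-fold and 9.96-fold, from a low base of 6 counts in each Vehicle library.

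At low counts, miR-147-5p had 1 and 0 counts in Vehicle, 14 and 8 in ConA+Vehicle, and 21 and 12 in ConA+D8THC, and was called higher in both comparisons with Vehicle (adjusted p = 0.000606 and 0.00169 in edgeR). Its plotted fold change rests on 1 count in Vehicle and depends on the prior count of the fit. miR-9-5p, at 5 to 23 counts per library, rose 2.96-fold (adjusted p = 0.0353) and 2.56-fold (adjusted p = 0.0434). With no library left out, the first call was lost in DESeq2 (adjusted p = 0.272) and in edgeR with RLE size factors (0.0508) or no filter (0.150). The second was lost in DESeq2 (adjusted p = 0.290), limma-voom (0.0501) and edgeR with no filter (0.148). The first call of miR-9-5p was lost without Vehicle replicate 1 or 2 (adjusted p = 0.0914 and 0.0693) and without replicate 1 or 2 of ConA+Vehicle (0.260 and 0.0626), in a range of 0.00729 to 0.272 over its alternatives. The second was lost without Vehicle replicate 1 or 2 (adjusted p = 0.124 and 0.107), ConA+Vehicle replicate 1 (0.0543) and ConA+D8THC replicate 1 or 2 (0.305 and 0.0507), in a range of 0.0298 to 0.305. DESeq2 called 5 of the 9 in each comparison. miR-132-3p, miR-132-5p and miR-212-3p, strands of the clustered CREB-responsive miR-132 and miR-212 genes, were not called. miR-132-3p, the most abundant of them, was at 193 ± 19.4, 228 ± 5.15 and 281 ± 45.8 CPM in the 3 groups, Vehicle first.

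In ConA+D8THC against ConA+Vehicle, edgeR called 0 of these 9 (0 by DESeq2, 0 by limma-voom, and 0 at an unadjusted p below 0.05), with a median log2 fold change of -0.21 against -0.04 over all. Relative to miR-155-5p, counted in the same library, miR-146b-5p stood at 23.8 and 22.2 counts per 100 in Vehicle, 11.0 and 15.1 in ConA+Vehicle, and 20.1 and 21.1 in ConA+D8THC. miR-146a-5p stood at 1634 and 1848 per 100 in Vehicle, 148 and 202 in ConA+Vehicle, and 276 and 301 in ConA+D8THC. Both ratios were lowest in both ConA+Vehicle libraries for each member. Groups of 2 allow no exact permutation p below 0.33, so these ratios are given without a test. How many of all miRNAs separate relative to miR-155-5p was not computed.

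The second list held 5 miRNAs described as restraining NF-kappaB signalling by other routes, and all 5 were tested. In ConA+Vehicle against Vehicle, 1 rose, 1 fell and 3 were not called, with a median log2 fold change of 0.11. Over all miRNAs 36.7% were called in this comparison, so the list's 2 of 5 lay near the background. miR-223-3p, which represses IKK-alpha in myeloid cells, went from 3433 and 3591 CPM to 26079 and 30971 and rose 8.12-fold (adjusted p = 4.43e-05 in edgeR). miR-10a-5p, which restrains NF-kappaB activation in endothelium, was 3.08-fold lower (adjusted p = 0.000348 in edgeR), falling from 14345 and 14453 CPM to 4717 and 4623. The endothelial share of counts also fell, and a link to miR-10a-5p was not tested. The same 2 were called in ConA+D8THC against Vehicle, miR-223-3p 4.93-fold higher and miR-10a-5p 1.96-fold lower. The other members, miR-16-5p, miR-15a-5p and miR-181b-5p, were not called in either comparison with Vehicle. miR-16-5p, the most abundant of the 5, was at 61765 ± 4795, 89712 ± 7652 and 91443 ± 2200 CPM in the 3 groups, Vehicle first. Its log2 fold changes against Vehicle were 0.54 and 0.57 (adjusted p = 0.0705 and 0.0615 in edgeR). In ConA+D8THC against ConA+Vehicle edgeR called 0 of the 5 (1 by DESeq2, miR-10a-5p, higher; 0 by limma-voom; 2 at an unadjusted p below 0.05). Without Vehicle replicate 1, or without Vehicle replicate 2, 2 of the 5 were called, 1 higher and 1 lower, and the same held with the replicate block.

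**Figure D3:**
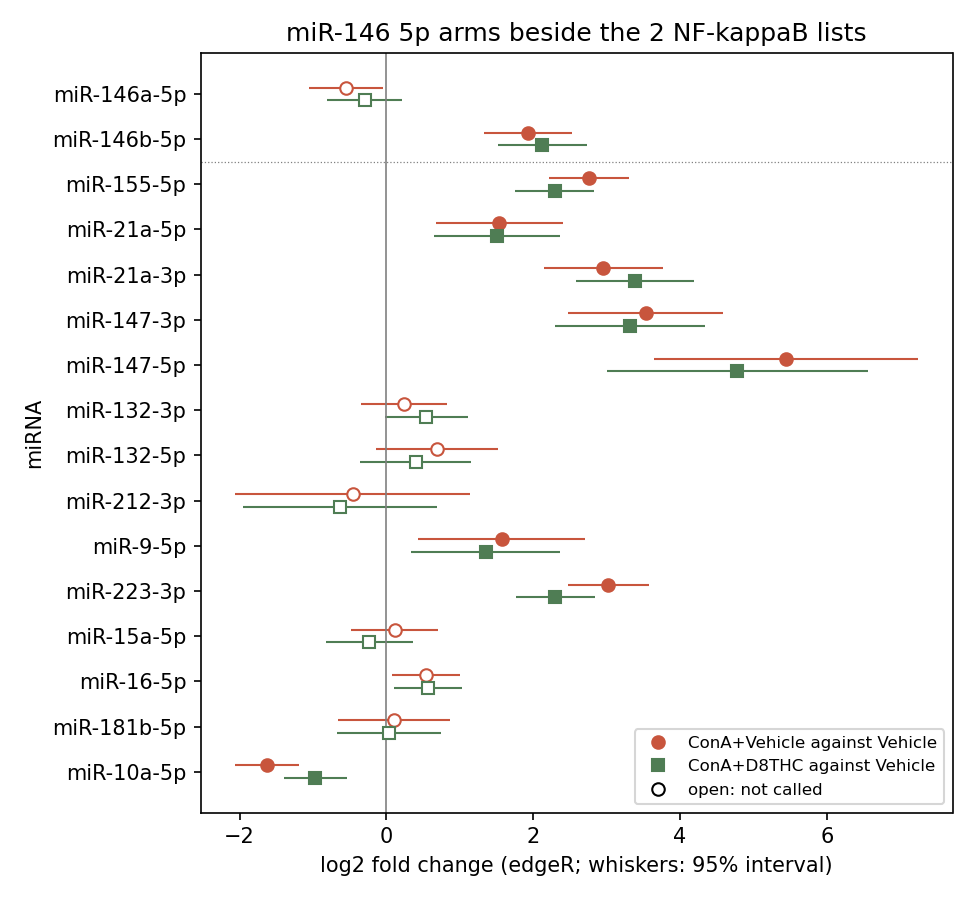
edgeR log2 fold changes with 95% intervals against Vehicle for the miR-146 pair (above the dotted line) and the tested members of the 2 NF-kappaB lists, for ConA+Vehicle (circles) and ConA+D8THC (squares); filled symbols have an adjusted p under 0.05. miR-146b-5p lies at 1.93 and 2.13 and miR-146a-5p at -0.55 and -0.30.

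The miRNAs with the most similar profiles were found by the root mean square difference of log2 CPM over the 6 libraries, after each miRNA was centred on its own mean, among the other 146 tested miRNAs with a mean of at least 100 CPM. For miR-146a-5p the nearest were miR-181a-5p (0.13), miR-27a-3p (0.15), let-7d-3p (0.19), miR-378a-5p (0.19) and miR-26a-5p (0.19). In ConA+Vehicle against Vehicle, edgeR called miR-27a-3p, let-7d-3p and miR-26a-5p lower (log2 -0.63, -0.83 and -0.62, adjusted p = 0.0274, 0.0471 and 0.0382). These calls were lost with no filter. miR-181a-5p and miR-378a-5p were not called. miR-146a-5p itself spanned a narrow range, with a root mean square deviation of 0.27 from its own mean. For miR-146b-5p the nearest was miR-7a-5p (0.13), followed by miR-21a-5p (0.30), miR-15b-3p (0.31), miR-92a-3p (0.31) and miR-223-5p (0.34), with its own deviation at 0.99. The paralogs were far apart, at 1.17; miR-146b-5p was at position 132 of 146 in likeness to miR-146a-5p. The 6 points are 3 groups of 2 libraries and share their depth and scaling, so this is a description.

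miR-7a-5p, at an average of 1601 CPM (Vehicle), 5244 (ConA+Vehicle) and 6311 (ConA+D8THC), was the closest match to miR-146b-5p by a wide margin. Its log2 fold changes against Vehicle were 1.71 in ConA+Vehicle (adjusted p = 0.000379 in edgeR) and 1.98 in ConA+D8THC (adjusted p = 0.000207), beside 1.93 and 2.13 for miR-146b-5p.

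**Figure D4:**
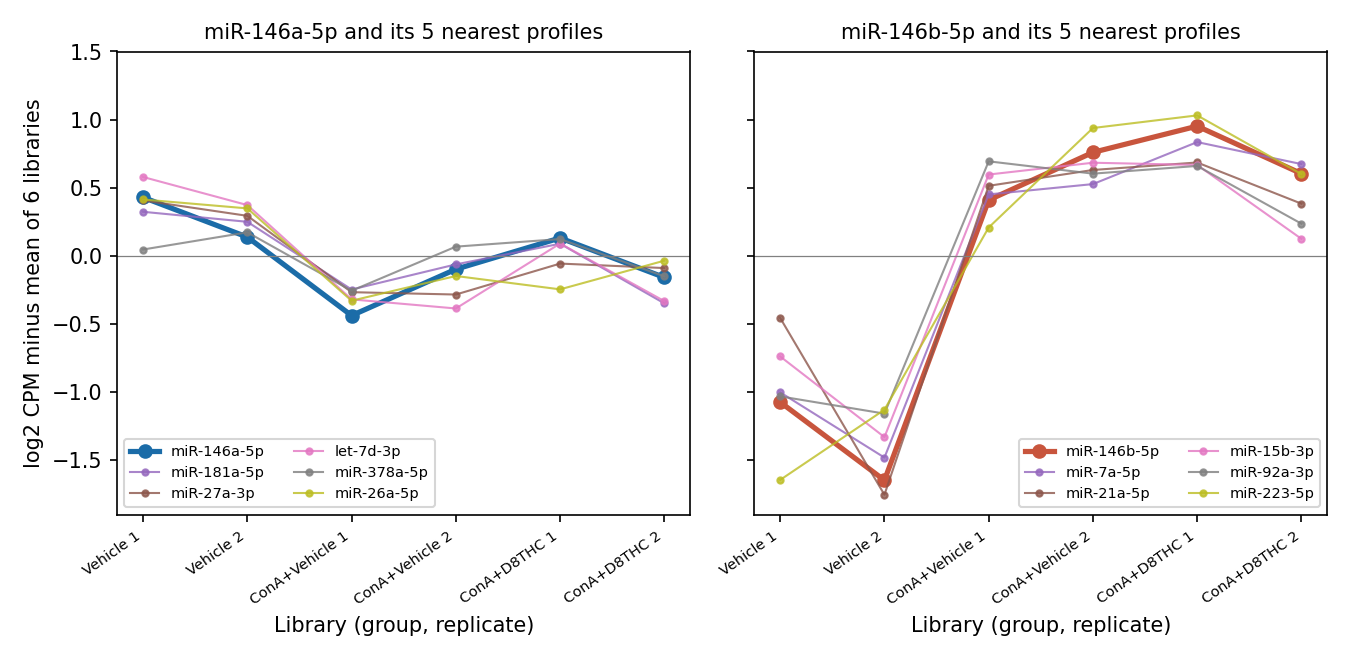
Centred log2 CPM (value minus the mean of 6 libraries) of miR-146a-5p with its 5 nearest miRNAs (left) and of miR-146b-5p with its 5 nearest (right), 1 point per library; lines join the points of a miRNA and carry no order. The profile of miR-146a-5p spans a narrow range, and miR-146b-5p and miR-7a-5p are low in both Vehicle libraries and high in the other 4.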

How the data were processed

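Unnormalized counts of mature miRNAs were deposited. Per the series' design text, reads were aligned and counted on the GeneGlobe site of QIAGEN, with build mm10 per the submitters' processing notes. QIAseq miRNA libraries were sequenced on a NextSeq 550. No source used here states the aligner, how reads with several matches were treated, or whether molecular identifiers were counted.

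The test was edgeR 4.0.16 in R 4.3.3 (filterByExpr, TMM, robust glmQLFit and glmQLFTest) on all 6 libraries with a group term and 3 residual degrees of freedom. Benjamini-Hochberg adjustment ran over all 297 tested miRNAs, with calls at an adjusted p under 0.05. A standard error is the size of the log2 fold change divided by the root of its F. Alternatives used DESeq2 1.42.0, limma-voom (limma 3.58.1), other scalings, no filter, 2 groups only, a replicate block, and each library left out. The procedure was tested on simulated data. Figures used Python 3.11.15 with matplotlib 3.10.9.

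The members and lists were chosen with earlier results of these data known. Named were the members, the other arms, both lists and, per member, the 5 nearest profiles of at least 100 CPM; values of miRNAs in lists were given where called or most abundant. Sequences came from RefSeq (GRCm38.p6), matched by name, and genes from GENCODE M21. The 95% binomial intervals and floors of 3 counts cover counting error only.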

Additional observations from a re-analysis of the deposited data

How the results depend on the processing

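For the members, their sum and their ratio, 12 results were recomputed under 141 alternatives. Of these, 136 kept direction and, for the members and their sum, side of the threshold. The ratios were not refitted and were judged by direction only. In ConA+Vehicle against Vehicle, miR-146a-5p was called lower with DESeq2 (log2 -0.65) and the replicate block (-0.54), and ran from -0.69 to -0.36 with 1 library left out; the summed entry was called with the block (-0.45). In ConA+D8THC against Vehicle the uncalled sum ran from -0.35 to 0.010 with 1 library left out, turning above 0 without ConA+D8THC replicate 2. The cause was not tested. RLE factors moved the median of all miRNAs in ConA+Vehicle against Vehicle from 0.10 to -0.01; relative to that median miR-146a-5p was at -0.65 and -0.64 and miR-146b-5p at 1.83 and 1.84.

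With 1 library left out, the number of miRNAs called ran from 67 to 129 in ConA+Vehicle against Vehicle (main 109; 67 without ConA+Vehicle replicate 1) and from 63 to 112 in ConA+D8THC against Vehicle (main 97; 63 without ConA+D8THC replicate 1). With the replicate block these counts were 132 and 133. In ConA+D8THC against ConA+Vehicle it was 11 in the main test (0 higher, 11 lower; 19 higher and 37 lower at an unadjusted p under 0.05), 17 with DESeq2 (5 higher, 12 lower), 19 with no filter, 18 with 2 groups only, 44 with the replicate block, and 8 to 40 with 1 library left out (34 and 40 without Vehicle replicate 1 or 2, 24 without ConA+D8THC replicate 2). With hepatocyte and endothelial markers removed it was 5 higher and 9 lower. Same-numbered replicates are not stated to share a source; their deviations correlated across miRNAs at 0.19, 0.08 and 0.22 in the 3 comparisons, in the order ConA+Vehicle with Vehicle, ConA+D8THC with ConA+Vehicle, and ConA+D8THC with Vehicle. The block changed no other call of a member. The ConA+Vehicle libraries were the shallowest, which limits the 3p strands most.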
